A study of Bos taurus with 18 samples.

Results

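The 2 genes described are ACTB (ENSBTAG00000026199) and GAPDH (ENSBTAG00000014731), taken by their Ensembl IDs from a table of 24616 bovine gene IDs. They were picked by identity, as usual reference genes of expression work. The rule that picks them uses no measured value, although earlier results of these data were known when they were chosen. The deposited table gives no gene names, no positions and no transcript lengths, so the pairing of the 2 IDs with their symbols is the one stated when the genes were picked and could not be checked in the table.

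RNA came from 18 demi-embryos, each 1 part of a blastocyst cut in 2. Per the series design, the blastocysts came from superovulated Holstein heifers and were flushed on day 8 after the anticipated ovulation, although the handling protocol speaks of day 7 of culture. The other part went to a recipient, and the sequenced parts form a group of 4 whose recipient was pregnant at both the day 30 and the day 60 check (pregnant 1, 2, 3 and 5) and a group of 14 whose recipient was not pregnant on day 30. No embryo received a treatment or carried an altered allele. A part of a blastocyst can hold trophectoderm, the outer layer that gives rise to placenta, and inner cell mass, which gives rise to the fetus. How much of each a library held is not known. The part left for sequencing was the smaller or more damaged one when the cut was uneven. The labels name no donor, so some embryos may share one, and p-values measure the spread between these embryos.

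ACTB encodes beta-actin, the subunit of the actin filaments that shape the cell cortex, carry junctional tension and drive division. In the blastocyst these filaments line the trophectoderm and hold the epithelium tight around the blastocoel. GAPDH encodes glyceraldehyde-3-phosphate dehydrogenase, the glycolytic enzyme that oxidises glyceraldehyde 3-phosphate and reduces NAD+, and mammalian embryos take up more glucose as they reach the blastocyst stage. Both are widely used to normalise expression measurements, a use that presumes a level that does not follow the condition under study. Each has close relatives in mammalian genomes, gamma-actin for ACTB and processed pseudogenes for GAPDH. The sources used here do not say how reads that match several copies were counted, so part of either count may belong to a relative, or the reverse.

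Libraries held 854791 to 4689576 counts, and those of the pregnant group were smaller, with 3 of 4 below all 14 of the not-pregnant group. Pregnant libraries averaged 20.24 ± 0.67 (SD, n = 4) log2 total counts and not-pregnant libraries 21.14 ± 0.44 (SD, n = 14). At an equal depth of 854791 counts, pregnant libraries also held more detected IDs, at 16753 to 18569 against 11672 to 16167. Pregnant 3 stood apart in that the 20 most abundant IDs other than ACTB and GAPDH took 58.6% of its counts, against 36.0% to 37.8% in the other pregnant libraries and 26.9% to 49.2% in the not-pregnant libraries. Less RNA per cell and fewer cells cannot be told apart in such libraries, and neither can a lower share of 1 gene and a higher share of the rest. Cell type markers could not be read, since the table pairs no ID with a name.

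ACTB was one of the most abundant IDs in every library, and it was lower in the pregnant group by share of counts. It ranked between 6 and 18 among all IDs of a library. The 4 pregnant libraries gave it 6588, 11146, 12343 and 6960 counts (pregnant 1, 2, 3 and 5), which is 0.642%, 1.02%, 0.506% and 0.814% of their totals. In the 14 not-pregnant libraries its share ran from 0.758% to 1.54%, with a median of 1.11%. Pregnant 1 and 3 lay below all 14 not-pregnant libraries, all 4 lay below the not-pregnant median, and the groups overlapped. The mean share was 0.745% ± 0.221 (SD, n = 4) against 1.14% ± 0.251 (SD, n = 14), a difference of -0.398 points (95% interval -0.694 to -0.102, exact two-sided permutation p = 0.0108, adjusted over 3 values 0.0324). Without pregnant 3 it came to -0.319 points, short of the threshold (exact permutation p = 0.0574). When the 20 most abundant other IDs were left out of the totals, the share was 1.29% ± 0.259 (SD, n = 4) against 1.78% ± 0.234 (SD, n = 14), a difference of -0.497 points (exact permutation p = 0.00294).

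GAPDH was less abundant than ACTB in every library, and its mean share was also lower in the pregnant group, with more overlap and without passing the test. It ranked between 78 and 322. The 4 pregnant libraries gave 458, 445, 459 and 517 counts (pregnant 1, 2, 3 and 5), or 0.0446%, 0.0406%, 0.0188% and 0.0605% of their totals. Among the not-pregnant libraries the share ran from 0.0309% to 0.101% with a median of 0.0554%. Only pregnant 3 lay below all of them, pregnant 5 lay above the not-pregnant median, and 8 of the 14 not-pregnant shares were under the highest pregnant one. The mean share was 0.0411% ± 0.0172 (SD, n = 4) against 0.0626% ± 0.0212 (SD, n = 14), a difference of -0.0214 points that did not pass (95% interval -0.0463 to 0.00316, exact two-sided permutation p = 0.0837, adjusted over 3 values 0.125). Pregnant 3 made up much of this difference, which was -0.0140 points without it (exact permutation p = 0.309), while without pregnant 5 it was -0.0279 points (exact permutation p = 0.0426).

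**Figure D1:**
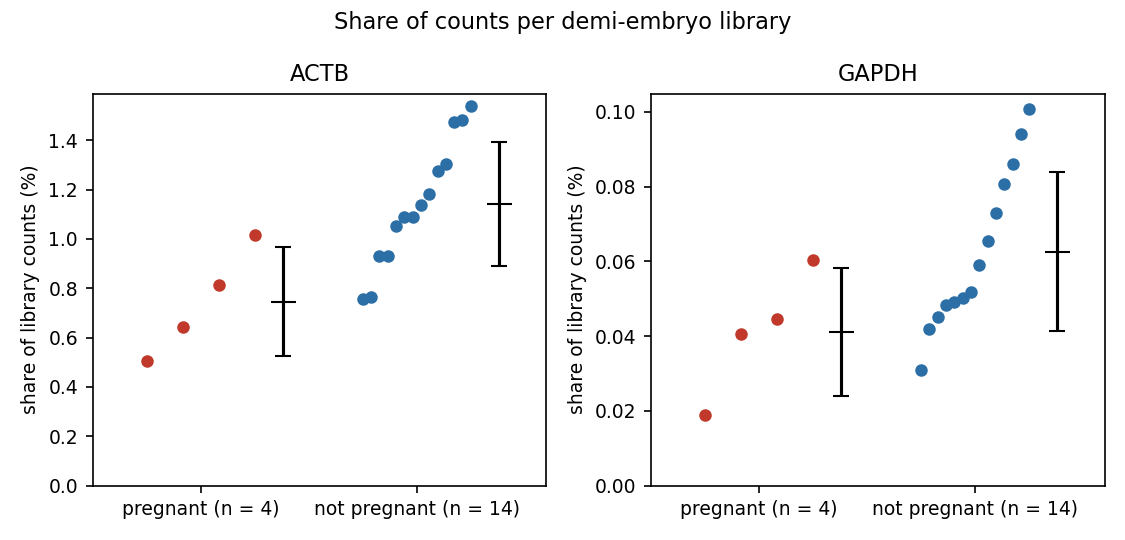
Share of library counts (%) taken by ACTB (left) and GAPDH (right), 1 point per demi-embryo library, sorted within each group, with the group mean and SD beside the points. The 4 pregnant ACTB shares reach 1.02% and the not-pregnant ones 1.54%, and for GAPDH the pregnant shares reach 0.0605% and the not-pregnant ones 0.101%.

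Counting error was small beside the spread between embryos. The share of GAPDH in pregnant 3 had a 95% Wilson interval of 0.0172% to 0.0206%, and that of ACTB 0.497% to 0.515%. In pregnant 5, the smallest library, the intervals were 0.0555% to 0.0659% for GAPDH and 0.795% to 0.834% for ACTB. These intervals cover counting error only, since reads copied from 1 molecule may have been counted more than once.

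As raw counts, GAPDH separated the groups and ACTB nearly did. The 4 pregnant libraries held 445 to 517 GAPDH counts, although pregnant 3 had more than 2 times the total of any of the other 3, and the not-pregnant libraries held 535 to 3789. ACTB had 6588 to 12343 counts in the pregnant group and 12326 to 59829 in the not-pregnant group, so that only pregnant 3 reached into the not-pregnant range. Raw counts without overlap between the groups occurred in 3.53% of the 13060 IDs tested. Raw counts carry the smaller totals of the pregnant group with them, and the values that follow are scaled.

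Scaled by TMM, which sets libraries to a common level by the bulk of their IDs, both genes were lower in the pregnant group by close amounts. The values were log2 CPM, the log2 of counts per 1000000 library counts. ACTB was at 12.39, 13.16, 12.83 and 12.80 in pregnant 1, 2, 3 and 5, and at 12.92 to 13.88 (median 13.47) in the not-pregnant libraries. Only pregnant 2 lay inside the not-pregnant range, above not-pregnant 10 alone. GAPDH was at 8.55, 8.51, 8.08 and 9.05, against 8.31 to 9.89 (median 9.18), so all but pregnant 3 lay inside the not-pregnant range, and all 4 lay below its median. Neither gene had groups without overlap on this scale, against 1.58% of the IDs tested.

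In edgeR's quasi-likelihood test over 13060 IDs, the log2 fold change of ACTB was -0.67 (SE 0.19, 95% interval -1.05 to -0.30), pregnant over not pregnant. Its adjusted p of 0.0594 (Benjamini-Hochberg, edgeR) missed the threshold of 0.05. The log2 fold change of GAPDH was -0.72 (SE 0.22, 95% interval -1.17 to -0.26, adjusted p = 0.0998 in edgeR). On a linear scale these are 0.627 times (0.482 to 0.815) and 0.609 times (0.445 to 0.834) the not-pregnant level. The test called 0.773% of all IDs in either direction and 0.429% as lower, and neither of the 2 genes was among them. Only 1.51% of IDs had a smaller p than ACTB and 2.90% a smaller p than GAPDH, at unadjusted p of 0.000911 and 0.00291. A direct comparison of TMM log2 CPM by exact two-sided permutation, apart from the adjustment over all IDs, gave p = 0.000654 for ACTB and p = 0.0157 for GAPDH (4 against 14 libraries).

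Abundant IDs as a whole leaned down in the pregnant group, and both genes lay in the lower part of them. Among the 3900 tested IDs with a mean of 32 CPM or more, the median log2 fold change was -0.19, and 9.51% had a lower value than ACTB and 7.85% a lower value than GAPDH. Relative to that median, ACTB was at -0.48 and GAPDH at -0.53. Over all 13060 IDs the median was 0.10.

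Whether the 2 genes counted as changed depended on the fit, while both were lower in the pregnant group in every fit run with TMM or another scaling by all IDs. ACTB passed in DESeq2 (-0.64, SE 0.15, adjusted p = 0.00685) and in limma voom with quality weights (-0.71, SE 0.12, adjusted p = 0.00053). In edgeR ACTB also passed when not-pregnant 10, 11, 12 or 16 was left out, and GAPDH when not-pregnant 10 or 16 was. Those fits called from 1.34% (without not-pregnant 12) to 2.77% (without not-pregnant 16) of all IDs, against 0.773% with all libraries. GAPDH passed in limma voom (-0.59, SE 0.18, adjusted p = 0.0241) and not in DESeq2 (-0.68, SE 0.22, adjusted p = 0.0684). Limma voom called 17.5% of all IDs and DESeq2 2.5%, so passing there says less about a single gene. In limma voom 11.3% of IDs had a smaller p than GAPDH and 0.245% a smaller p than ACTB. With log2 total counts as a covariate, ACTB was at -0.49 (SE 0.23) and GAPDH at -0.40 (SE 0.30), with adjusted p of 0.759 and 0.870 in edgeR. With the number of IDs detected at equal depth as a covariate, a choice made after seeing the data, they were at -0.38 (SE 0.28) and -0.13 (SE 0.33), both with an adjusted p of 1.00 in edgeR. In that fit the median of all IDs was -0.12 in place of 0.10, and relative to it ACTB was at -0.27 and GAPDH at -0.01. Depth and detected IDs differ between the groups, so their part in the lower level of either gene cannot be told apart from that of outcome.

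**Figure D2:**
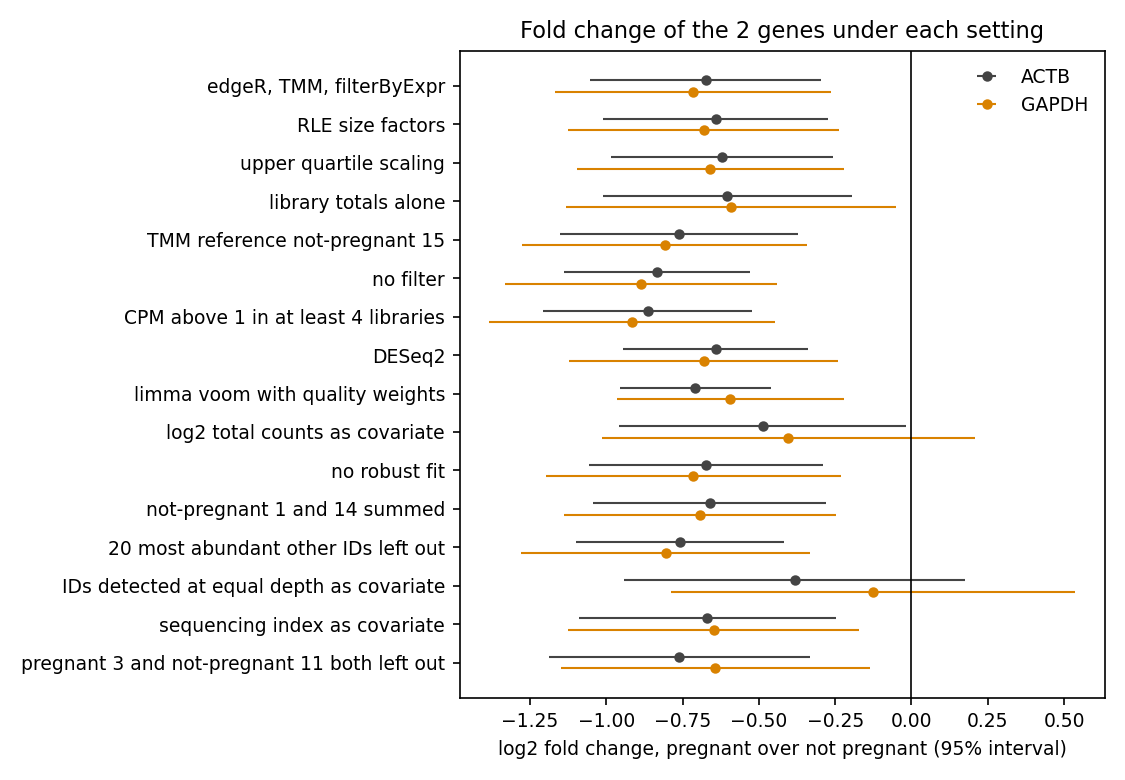
Log2 fold change (pregnant over not pregnant) with its 95% interval for ACTB and GAPDH under each fit other than the replicate block, with all libraries except in the bottom line. Every point lies left of 0, and the values nearest 0 are those with IDs detected at equal depth as covariate, -0.38 for ACTB and -0.13 for GAPDH.

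The ratio of the 2 genes did not differ between the groups beyond the spread of the embryos. Each ratio compares raw counts, with no correction for transcript length, and so does not give the ratio of their transcript levels. ACTB had 14.4, 25.0, 26.9 and 13.5 times the GAPDH counts in pregnant 1, 2, 3 and 5, and 13.2 to 24.6 times (median 19.6) in the not-pregnant libraries. The log2 ratio was 4.25 ± 0.52 (SD, n = 4) against 4.24 ± 0.26 (SD, n = 14), a difference of 0.01 (95% interval -0.37 to 0.39, exact two-sided permutation p = 0.946, adjusted over 3 values 0.946). That interval spans 0.772 to 1.31 times, so a shift of the ratio of up to about that size could have gone undetected.

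Inside the pregnant group the ratio was high in 2 libraries and low in 2. Pregnant 2 and 3 lay above all 14 not-pregnant libraries, while pregnant 1 and 5 lay below all of them except not-pregnant 8, at 13.2. None of the 4 libraries lay near the mean of the group, 19.9. Whether the spread of the ratio differs between the groups was not tested.

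**Figure D3:**
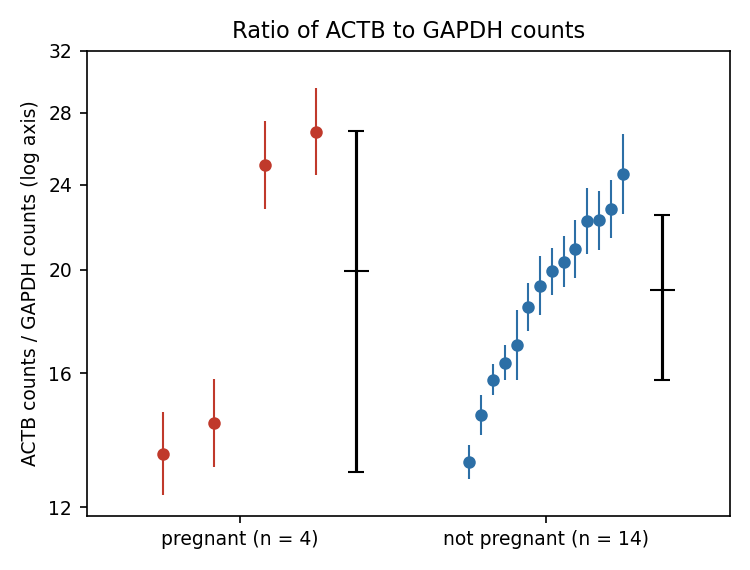
Ratio of ACTB to GAPDH counts (log axis) for each library, with 95% counting intervals as vertical lines and the group mean and SD beside the points. The group means are 19.9 and 19.1, and the 4 pregnant libraries sit at both ends of the not-pregnant range.

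Over embryos, the 2 shares moved together. Their log2 shares had Pearson's r = 0.854 (permutation p = 2e-05, adjusted over 7 relations 0.00014) and Spearman's rho = 0.855 (permutation p = 3e-05, adjusted 0.00021) over 18 libraries. Without the 2 libraries farthest from the median GAPDH share (pregnant 3 and not-pregnant 1), r was 0.739 (permutation p = 0.00123). Within the 14 not-pregnant libraries alone r was 0.872 (permutation p = 7e-05). Both shares have the same library total beneath them, so part of this relation is given by the other genes of the library.

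Among not-pregnant embryos, GAPDH took a larger share in libraries with more counts. In that group of 14, log2 GAPDH share and log2 total counts had r = 0.635 (permutation p = 0.0136, adjusted over 7 relations 0.0318) and rho = 0.622 (permutation p = 0.0192, adjusted 0.0448). Without its 2 farthest libraries (not-pregnant 8 and 11), r was 0.585 (permutation p = 0.0452, adjusted 0.0633). There rho was 0.50 (permutation p = 0.0983, adjusted 0.130), so neither passed after adjustment. The same relation for ACTB did not pass, at r = 0.432 and rho = 0.468 (permutation p = 0.122 and 0.0932). The log2 ratio of ACTB to GAPDH was lower in libraries with more counts, at r = -0.656 and rho = -0.596 (permutation p = 0.0106 and 0.0277, adjusted 0.0318 and 0.0475), and rested on not-pregnant 8 and 11, without which r was -0.442 (permutation p = 0.151). Over all 18 libraries none of these 3 relations to total counts passed after adjustment. Pearson's r was 0.430 for ACTB, 0.350 for GAPDH and -0.0676 for the ratio, with adjusted permutation p of 0.129, 0.213 and 0.790, and rho was 0.480, 0.453 and -0.133, with adjusted permutation p of 0.0796, 0.0818 and 0.597.

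Over all 18 libraries, both shares tended to be smaller where more IDs were detected at equal depth, which passed after adjustment by rho alone. All 4 pregnant libraries held more such IDs than any not-pregnant library. The relation over all libraries thus cannot be told apart from the difference between the groups. Over 18 libraries r was -0.557 for ACTB and -0.503 for GAPDH (adjusted permutation p = 0.0579 and 0.0836), and rho was -0.608 and -0.637 (adjusted permutation p = 0.0204 and 0.0193). Without not-pregnant 11 and pregnant 1, the 2 libraries farthest from the median, r was -0.468 and -0.485. It did not pass even without adjustment (permutation p = 0.0687 and 0.0571). There rho was -0.52 and -0.56, which passed only without adjustment (permutation p = 0.0391 and 0.0269, adjusted 0.0895 for each). In the not-pregnant group alone, ACTB had r = -0.315 and rho = -0.380 (permutation p = 0.285 and 0.181). There GAPDH had r = -0.520 (permutation p = 0.0513, adjusted 0.0718) and rho = -0.578, which passed (permutation p = 0.0339, adjusted 0.0475). Pearson's r was -0.628 and -0.796 without not-pregnant 11 and 12 (permutation p = 0.0284 and 0.00199).

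As to stability, ACTB varied less over these libraries than GAPDH, and its spread was smaller once outcome was taken into account. Over all 18 libraries the SD of TMM log2 CPM was 0.39 for ACTB and 0.51 for GAPDH, against a median of 0.43 over the 3900 IDs of 32 CPM or more. A lower SD was found for 36.7% of those IDs in the case of ACTB and for 72.1% in that of GAPDH. Once the group means were taken out, the SD was 0.26 for ACTB and 0.43 for GAPDH (median 0.41), and 7.59% and 56.9% of the IDs had a lower one. Within the not-pregnant group ACTB had an SD of 0.25 and GAPDH one of 0.44, and within the pregnant group they had 0.31 and 0.40. From the lowest to the highest library ACTB covered 2.80-fold (1.94-fold among not-pregnant libraries) and GAPDH 3.51-fold (3.01-fold among not-pregnant libraries). These values depend on the scaling. With library totals in place of TMM, ACTB covered 3.02-fold and GAPDH 5.31-fold. Once group means were taken out there, 17.7% of the IDs had a lower SD than ACTB and 70.6% a lower one than GAPDH.

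A measure that needs no scaling ranked them in the same order. The SD over libraries of the log2 ratio between a gene and each other ID of 32 CPM or more, averaged over those IDs, was 0.56 for ACTB and 0.65 for GAPDH, with a median of 0.63 over all such IDs. By it, 15.1% of the IDs were steadier than ACTB and 58.4% steadier than GAPDH. The ratio of the pair to each other had an SD of 0.32, below the median of 0.52 for ACTB and 0.61 for GAPDH against any abundant ID. In the case of GAPDH only 0.436% of the IDs had a steadier ratio to it than ACTB did, and in the case of ACTB 6.16% had a steadier ratio than GAPDH did.

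**Figure D4:**
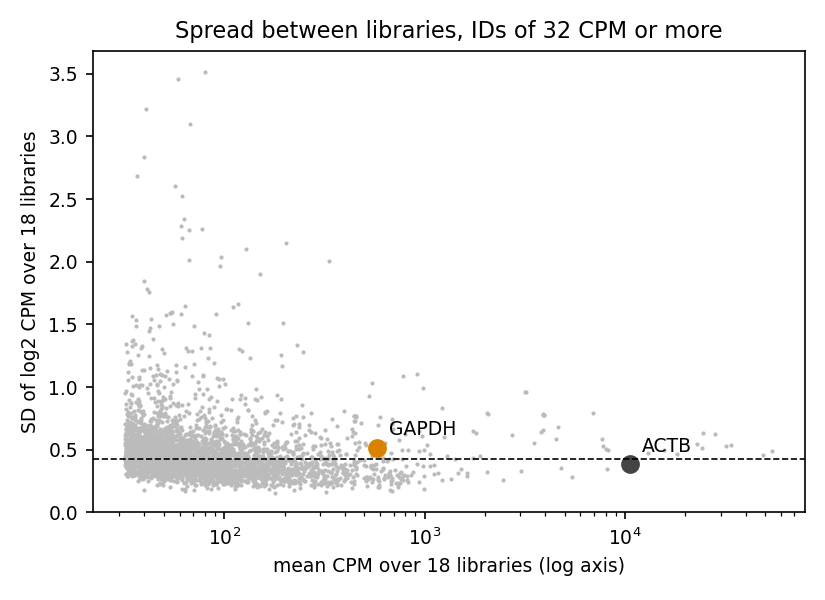
SD of TMM log2 CPM over the 18 libraries against mean CPM (log axis) for the 3900 IDs with 32 CPM or more, with ACTB and GAPDH marked and the median SD of 0.43 as a dashed line. ACTB (SD 0.39) lies under the median and GAPDH (SD 0.51) above it.

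Compared with IDs of their own abundance, GAPDH stood high in spread. Of the 272 IDs with a mean CPM within 2-fold of GAPDH, 81.3% had a lower SD, and the median SD was 0.35. For ACTB, 18.2% of 11 such IDs did, with a median of 0.50, and with library totals in place of TMM it was 72.7%, a set too small to rank it.

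The steadiest abundant IDs were much steadier than either gene. ENSBTAG00000001697 had an SD of 0.16 and ran from 7.17 to 7.80 log2 CPM, and ENSBTAG00000012890 had one of 0.16 and ran from 8.07 to 8.65. They were chosen as the 2 lowest SDs on these libraries, which favours low values here, and the table does not name them. Their log2 fold changes were -0.21 (SE 0.16) and -0.25 (SE 0.15), with adjusted p of 0.492 and 0.386 in edgeR.

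The IDs most like ACTB over the 18 libraries followed it more closely than GAPDH did. ENSBTAG00000001517 had Pearson's r = 0.962 with ACTB in TMM log2 CPM, and ENSBTAG00000026428 had r = 0.954. GAPDH had r = 0.788 and came as number 126 of 3899 IDs, where the median r was 0.19. For GAPDH the closest were ENSBTAG00000013854 (r = 0.891) and ENSBTAG00000004258 (r = 0.874), and ACTB came as number 38. All IDs of a library share its depth and scaling, which can enter these r values, and the 4 IDs were chosen for their r.

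Used as the scaling factor, either gene moved what the comparison of outcome groups called. Each library was set to equal ACTB counts, to equal GAPDH counts or to an equal geometric mean of both, with the same IDs and the same edgeR test. With TMM, 45 IDs were called higher and 56 lower in the pregnant group. With ACTB as reference, 3039 were called higher and 16 lower, which is 23.4% of the IDs in either direction. With GAPDH the counts were 1206 and 3 (9.26%), and with both 2259 and 8 (17.4%). The higher IDs made up 44.6% of the calls with TMM and 99.5%, 99.8% and 99.6% with the 3 references. The split without a reference gene also varied with the fit, at 35 higher and 8 lower with library totals alone and 1829 higher and 450 lower in limma voom.

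The median of all 13060 IDs moved with the reference by about the amount by which the genes were lower. Scaling by a gene moves every ID by that gene's own change. The shift of the median and the lean of the calls to higher IDs thus follow from the lower level of the genes and do not test it. It was 0.10 with TMM, 0.78 with ACTB, 0.77 with GAPDH and 0.77 with both, on the log2 scale, pregnant over not pregnant. Relative to the median, ACTB was at -0.78 with TMM and at -0.71 with GAPDH as reference. GAPDH was at -0.82 with TMM and at -0.75 with ACTB as reference. With ACTB as reference the log2 fold change of GAPDH was 0.03 (SE 0.20, adjusted p = 0.902 in edgeR), and with GAPDH as reference that of ACTB was 0.06 (SE 0.27, adjusted p = 0.872 in edgeR). Their 95% intervals were 0.773 to 1.35 times and 0.715 to 1.52 times, so differences of that size could have gone undetected. These 2 fits look at the ratio of the genes again and are no separate evidence that the genes change alike.

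The number of calls turned on single libraries with TMM and with these references. With TMM, 0 IDs were called without pregnant 1, 13 without pregnant 2, 3 without pregnant 3 and 14 without pregnant 5, against 101 with all libraries. Of the not-pregnant libraries, leaving out 1, 3, 4, 5 or 15 gave 65 to 67 calls, and leaving out 10, 11, 12, 13 or 16 gave 350, 242, 174, 181 and 359. With ACTB, 349 IDs were called without pregnant 1, 1847 without pregnant 3 and 1452 without pregnant 5, against 3055 with all libraries. With GAPDH, 11 were called without pregnant 3, 148 without pregnant 2, 306 without pregnant 1 and 3601 without not-pregnant 10, against 1209, and leaving out not-pregnant 1 (795) or not-pregnant 8 (790) also moved it by over 1.5 times. With both, 395 were called without pregnant 1, 408 without pregnant 3, 1319 without pregnant 2 and 4142 without not-pregnant 10, against 2267. The median fold change of all IDs with a reference gene was above 0 whichever library was left out, between 0.62 (GAPDH, without pregnant 3) and 0.94 (GAPDH, without pregnant 5).

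**Figure D5:**
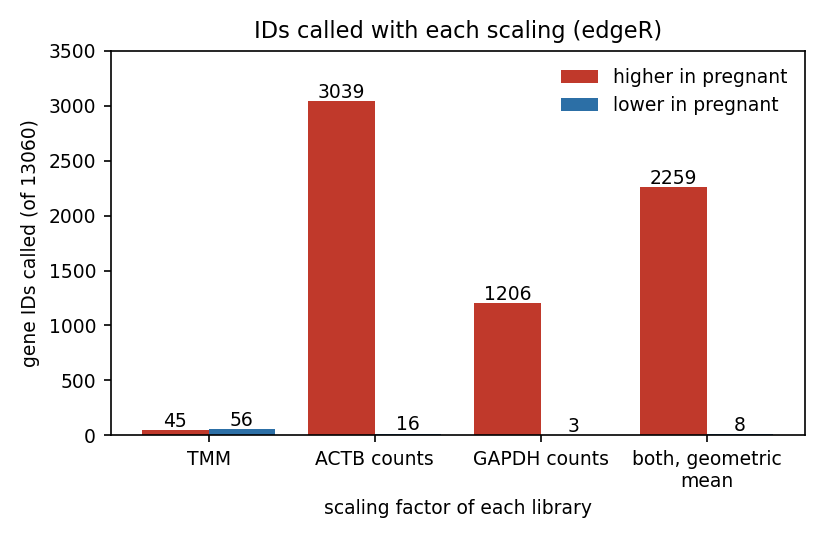
Number of gene IDs called higher or lower in the pregnant group by edgeR among 13060 tested, for each way of setting the library scale. The bars for higher IDs go from 45 with TMM to 3039, 1206 and 2259 with ACTB, GAPDH and both.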

How the data were processed

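RNA-seq was run on 18 bovine demi-embryos, and the deposited values are raw counts per Ensembl gene ID, 1 column per library, as the authors made them. Per the submitters' processing notes, UMD3.1, bosTau8 and edgeR were used. Not given in the sources used here were the aligner, the counter, the use of strand and the treatment of duplicate or multiply matching reads. Totals ran from 854791 to 4689576 counts, with a median of 2084917.

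The 2 genes are defined by identity alone, but they, the lists and the tests were chosen with earlier results of these data known. None of the 24616 IDs matched the reference gene table, so lists of glycolytic, actin cytoskeleton, reference and cell type marker genes could not be applied.

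Counts were filtered with filterByExpr (10 counts, 15 in total), scaled by TMM and tested with edgeR 4.0.16 (robust quasi-likelihood fit, Benjamini-Hochberg adjustment, threshold 0.05) in R 4.3.3, pregnant against not pregnant. DESeq2 1.42.0 and limma 3.58.1 were alternatives. SEs of fold changes in edgeR were derived from the F value, and those of DESeq2 and limma came from their own fits. Log2 CPM used a prior count of 2. Single values were compared by a two-sided exact permutation test over the 3060 ways of choosing 4 of 18 libraries, with intervals by inversion of that test. Correlations used 100000 resamples and were adjusted over 7 relations, 3 of them added after seeing the data. IDs detected at equal depth are the number expected in 854791 counts drawn from a library. Besides the 2 genes, the text names the 2 abundant IDs most alike to each and the 2 with the lowest SD. The fits were tested on simulated data. Python 3.11.15, scipy 1.17.1, numpy 2.4.6 and matplotlib 3.10.9 were used.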

Additional observations from a re-analysis of the deposited data

How the results depend on the processing

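The log2 fold change of ACTB (-0.67) passed at -0.76 with not-pregnant 15 as TMM reference, -0.83 with no filter, -0.86 with CPM above 1 in at least 4 libraries, -0.64 in DESeq2, -0.71 in limma voom and -0.76 once the 20 most abundant other IDs were dropped. Leaving out 1 library gave -0.82 to -0.56 (adjusted p 0.0174 to 0.265, edgeR). That of GAPDH (-0.72) passed at -0.88 with no filter, -0.92 with the CPM filter and -0.59 in limma voom, and ran from -0.92 to -0.66 with 1 library left out (adjusted p 0.0219 to 0.265, edgeR). The fits on all libraries in which either gene passed called from 1.73% (20 IDs dropped) to 17.5% (limma voom) of all IDs. The main fit called 0.773%. With a block by title number GAPDH was at -1.03 (adjusted p = 0.0299, edgeR) and ACTB at -1.05 (adjusted p = 0.0771, edgeR). Only the numbers 1, 3 and 5 occur in both groups. That replicate block thus compares outcome within the libraries of these numbers alone, and the other libraries add nothing to the fold change. It also leaves very little spread within numbers to estimate. The p-values and counts of calls from the replicate block thus lean on spread pooled over IDs, whichever scaling was used. The libraries that share title number 1, 3 or 5 were not alike in their deviations from group means (r of -0.04, 0.07 and -0.03). Whether a shared number stands for a common donor or day is not known.

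The 101 calls became 43 with library totals, 252 with the other TMM reference, 623 with no filter and 406 with the CPM filter. They became 326 in DESeq2, 2279 in limma voom, 591 with the replicate block and 228 without the 20 IDs. As covariates, log2 total counts left 1 call and the sequencing index left 1. The index was entered as a number, an unplanned choice, so that fit takes out only a straight-line trend over index values. With IDs detected at equal depth as covariate edgeR called 0 (128 higher and 333 lower at an unadjusted p under 0.05). Leaving out 1 library gave 0 to 359, with 0 without pregnant 1 (977 and 746 at an unadjusted p under 0.05). With GAPDH as reference 2255 IDs were called with no filter, 4380 with the replicate block and 11 to 3601 with 1 library left out. With ACTB the last range was 349 to 4255. With both genes it was 395 to 4142, and 4468 were called with the replicate block. The median fold change of all IDs with a reference gene stayed above 0 in each of these fits. The cause of these moves was not tested.

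Leaving out 1 library moved the difference in ACTB share from -0.489 to -0.319 points, that in GAPDH share from -0.0279 to -0.0140 points, and that in the log2 ratio from -0.154 to 0.178, with reversals without not-pregnant 1 (-0.0155), 5 (-0.00297), 8 (-0.0267) and 11 (-0.00699) and pregnant 2 (-0.120) and 3 (-0.154). On TMM log2 CPM the GAPDH difference of -0.69 passed without any adjustment (exact permutation p = 0.0157). Some relations passed only in not-pregnant libraries: GAPDH share with total counts (r = 0.635) and the ratio with total counts (r = -0.656) and with IDs detected (r = 0.585). Without the 2 farthest of them the relations with IDs detected were -0.628 for ACTB, -0.796 for GAPDH and 0.735 for the ratio. GAPDH had 445 to 517 counts in the pregnant libraries, which sets its counting error there.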
